A study of Mus musculus with 1279 samples.

Results

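The 33 genes described here are interferon response and antigen presentation genes, out of 46517 genes counted in 1279 single cells of the mouse heart. They were chosen by name as known interferon-stimulated or class I presentation genes, by a rule that uses no measured value, although earlier results of these data were known when the list was drawn up. All 33 had reads. They comprised 4 transcription factors (Irf1, Irf7, Irf9, Stat2) and 13 antiviral effectors and regulators (Ifit1, Ifit2, Ifit3, Isg15, Oasl2, Rsad2, Usp18, Ifi44, Ifi35, Xaf1, Rtp4, Ifi27l2a, Bst2). The others were 3 interferon-induced transmembrane proteins (Ifitm1, Ifitm2, Ifitm3), 4 members of the p200 family (Ifi203, Ifi204, Ifi205, Ifi211), 3 guanylate-binding proteins (Gbp2, Gbp3, Gbp7) and 6 genes of class I antigen presentation (H2-K1, H2-D1, B2m, Psmb8, Psmb9, Tap1).

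Interferons are cytokines that bind cell-surface receptors and activate STAT and IRF transcription factors. Type I interferons drive genes with an interferon-stimulated response element in their promoters through a complex that holds Stat2 and Irf9, and interferon gamma drives genes with a gamma-activated site. Class I molecules, made of a heavy chain such as H2-K1 or H2-D1 and of B2m, display on the surface of nearly all nucleated cells peptides that the proteasome cuts and the Tap transporter moves into the endoplasmic reticulum.

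Cells came from hearts of adult male mice, 10 to 20 weeks old, of 4 strains, and single cells in plate wells were sequenced with Smart-seq2, which covers full-length cDNA and has no molecular identifiers. C57BL6 cells had been sorted with antibodies to PDGFRα or PDGFRβ. PdgfrbGFP, Cspg4dsRED and Acta2GFP mice carried fluorescent reporters driven by regulatory sequences of Pdgfrb, Cspg4 and Acta2, on a C57BL6 background, and the sorts left out CD31-positive cells. No animal was treated, elastase was added to the dissociation for Acta2GFP, and all hearts were digested with collagenase. The labels gave each cell a strain and a cluster from 1 to 8, made by the authors from the same counts, so the 33 genes may have entered the clustering. The study's text places clusters 1 to 5 among fibroblasts, with cluster 1 as likely valve interstitial cells, and clusters 6 to 8 were treated here as mural cells, meaning pericytes and vascular smooth muscle cells.

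Clusters 1 to 8 held 5.47, 17.1, 8.76, 18.2, 22.8, 3.05, 9.23 and 15.3% of the 1279 cells, which made 926 fibroblasts and 353 mural cells. C57BL6, PdgfrbGFP, Cspg4dsRED and Acta2GFP gave 45.4, 28.5, 12.7 and 13.4% of all cells, and fibroblasts made up 93.6, 64.8, 16 and 70.2% of the cells of these strains. Totals per cell ran from 46268 to 1302397 counts with a median of 274504. The 5 fibroblast markers summed to 12268 ± 1280 counts per 1000000 counts (CPM; SD, n = 4 strains) in fibroblasts and 1742 ± 583 CPM in mural cells, and the 5 mural markers to 155.4 ± 97.4 and 7923 ± 2995 CPM. In cluster 6 the fibroblast markers reached 6274 ± 5385 CPM (n = 3 strains), with at least 3108 CPM in each strain and 12491 CPM in the 3 cells of C57BL6. The mural markers of cluster 6 were at 1693 ± 844 CPM, and its 4 smooth muscle markers at 9946 to 13384 CPM in every strain, so both kinds of marker were present. The 8 immune markers summed to between 5.55 and 53.6 CPM in fibroblasts and between 0.975 and 63.6 CPM in mural cells, and 7 of the 8 had reads in fibroblasts, all but Cd3e, a T cell receptor component. At a limit of 50 CPM of these markers, 1035 of the 1279 cells lay below it, and of the C57BL6 fibroblasts 334 of 544 did. The labels name no animal, so counts were summed per strain and the strain was the replicate. PdgfrbGFP, Cspg4dsRED and Acta2GFP cells each came on 1 plate and C57BL6 cells on 3, so that strain, sort and animal cannot be told apart, nor plate outside C57BL6. A sum cannot tell fewer expressing cells from less RNA per cell.

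Promoters were searched for the letters of 2 elements known from interferon-responsive genes. RefSeq promoter windows of 300 bases (250 before to 50 after the start, assembly GRCm38.p6) were found for 29 of the 33 genes, and none was found for Ifi204, Usp18, Ifi27l2a and Rtp4. The core of the response element, 2 copies of GAAA with any 2 bases between them, was searched on both strands, where the copies read TTTC on the other strand. It stood in a window of 15 of the 29 genes, against 3.99% of 27025 gene symbols in the whole table. The genes with a match were 5 of 10 antiviral effectors, 3 of 3 p200 genes, 3 of 3 guanylate-binding proteins, 2 of 3 Ifitm genes, 1 of 4 transcription factors and 1 of 6 class I genes. The letters TTCNNNGAA, the gamma-activated site, stood in 7 of the 29 genes, against 9.55% of all symbols. The genes were listed because interferon is known to drive them, so these shares describe the choice, and a match is a run of letters, not a shown binding site. The 7 stretches of 70 bases printed next, with the matches in capitals, are shown for 4 effectors, for B2m and for 2 of the p200 genes called in cluster 1.
Ifit1, chr19:34640764-34640833, + strand: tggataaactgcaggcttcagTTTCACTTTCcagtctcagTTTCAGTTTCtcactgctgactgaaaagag
Ifit3, chr19:34583360-34583429, + strand: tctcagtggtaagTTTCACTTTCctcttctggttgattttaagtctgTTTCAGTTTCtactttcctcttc
Isg15, chr4:156200851-156200920, - strand: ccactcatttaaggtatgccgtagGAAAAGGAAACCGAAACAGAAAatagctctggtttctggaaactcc
Rsad2, chr12:26456533-26456602, - strand: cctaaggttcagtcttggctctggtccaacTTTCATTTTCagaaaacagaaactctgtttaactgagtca
B2m, chr2:122147518-122147587, + strand: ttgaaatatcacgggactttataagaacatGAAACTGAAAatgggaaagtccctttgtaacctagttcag
Ifi205, chr1:174031850-174031919, - strand: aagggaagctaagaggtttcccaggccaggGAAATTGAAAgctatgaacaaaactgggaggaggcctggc
Ifi211, chr1:173913047-173913116, - strand: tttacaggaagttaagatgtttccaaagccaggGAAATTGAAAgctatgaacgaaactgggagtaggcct
Isg15 held 3 overlapping matches between 78 and 57 bases before the start, and Ifit1 held 2 separate ones, the nearer ending 76 bases before it. In Ifi205 and Ifi211 the match and its flanks were nearly the same sequence. Over 30 bases aligned on the match, 29 were identical between these neighbouring genes, and Ifi203 shared 26 with Ifi205 and 25 with Ifi211.

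Per kilobase of exon, the class I light chain and the small transmembrane proteins stood highest. In fibroblasts B2m stood at 1483 CPM per kb, Ifitm3 at 1166, Ifitm2 at 851 and Ifi27l2a at 839, ahead of H2-D1 at 484 and H2-K1 at 279.5. Ifitm3 and Ifitm2 are membrane proteins that block the entry of enveloped viruses, and Ifi27l2a is a small interferon-inducible protein of intracellular membranes. The lowest 3 were Stat2 at 6.60, Rsad2 at 2.97 and Ifi44 at 0.953 CPM per kb. In mural cells Ifitm3 led at 1186 CPM per kb, next to B2m at 931 and Ifitm2 at 925, followed by Ifitm1 at 248.96. These are levels, and the gap between B2m and Ifitm3 in mural cells was within the spread over strains. B2m, H2-K1 and H2-D1 together made up 46.9% of all reads of the 33 genes in fibroblasts and 38% in mural cells.

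Across clusters the 33 genes did not share 1 order. Of the genes, 14 had their highest mean over strains in cluster 2, 7 in cluster 8, 5 in cluster 5, 4 in cluster 3, 2 in cluster 4 and 1, Gbp2, in cluster 6. The lowest mean was in cluster 6 for 15 genes, in cluster 7 for 13, in cluster 1 for 4 and in cluster 4 for Ifi35. Clusters 3, 6 and 7 had sums from 3 strains and cluster 5 from 2, so single means rest on unequal numbers. B2m ran from 380 ± 147.3 CPM in cluster 7 to 1445 ± 180 CPM (SD over strains) in cluster 5, and cluster 5 lay within the spread of cluster 2 at 1391 ± 310 CPM.

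**Figure D1:**
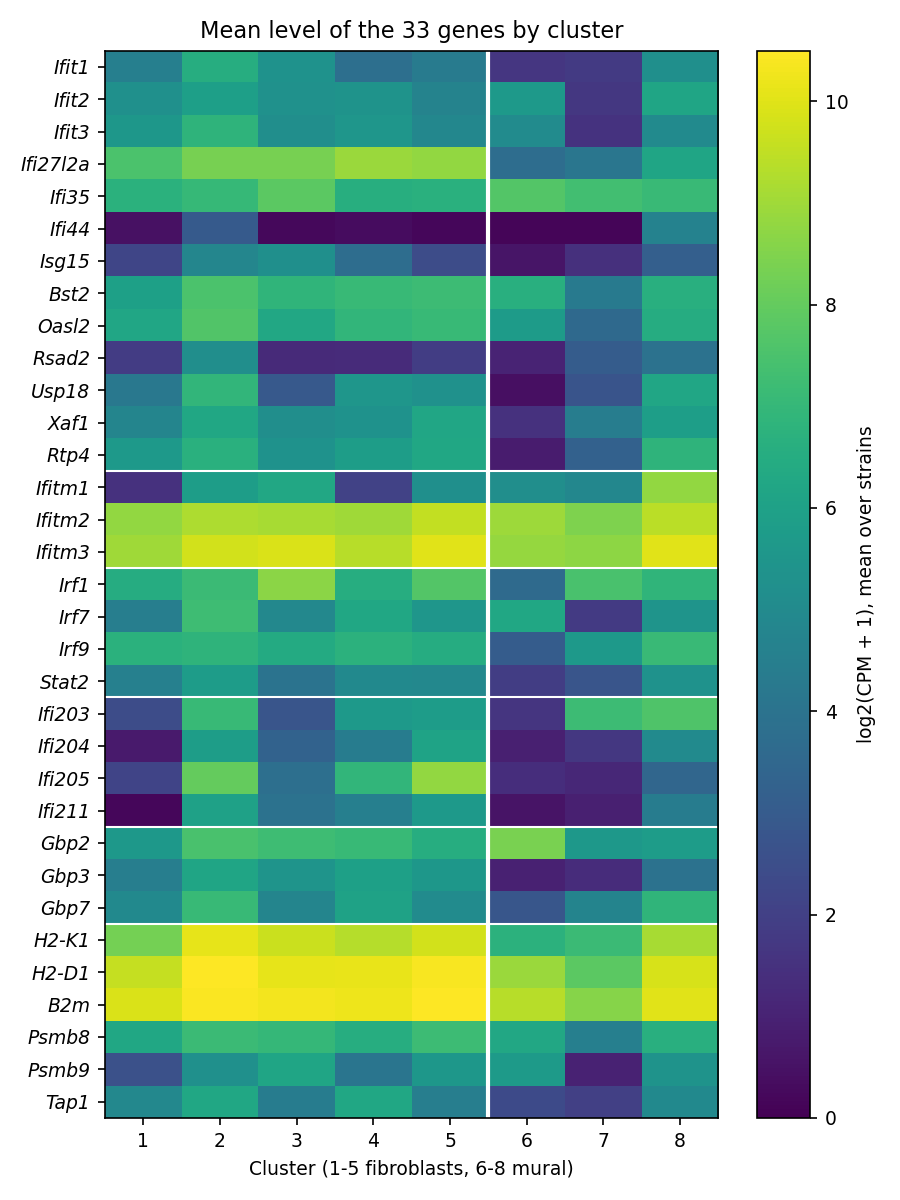
Heat map of the 33 genes (lines, grouped by role) in clusters 1 to 8 (columns), coloured by log2(mean CPM + 1) over strains. The p200 genes Ifi204, Ifi205 and Ifi211 are near 0 in clusters 1, 6 and 7, Ifitm1 is highest in cluster 8, and B2m, H2-D1, Ifitm2 and Ifitm3 are high in every cluster.

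The first comparison asked which of the genes tell fibroblasts from mural cells. Ifi27l2a and Ifi205 were higher in fibroblasts and Ifitm1 was higher in mural cells, mainly those of cluster 8, and these 3 of 33 were called. The background was 5.93% of 15117 genes at an adjusted p under 0.05 with the edgeR quasi-likelihood F test (Benjamini-Hochberg over all genes), 3.47% higher and 2.45% lower in fibroblasts.

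Ifi27l2a (ENSMUSG00000079017, chr12:103442167-103443680, - strand, annotated on GRCm38) stood in fibroblasts at 427, 411, 422 and 293 CPM in C57BL6, PdgfrbGFP, Cspg4dsRED and Acta2GFP. The mural sums of these strains gave 54.6, 14.6, 56.7 and 20.5 CPM. Every fibroblast sum lay above every mural sum, with the Acta2GFP fibroblasts lowest among fibroblasts. The log2 fold change was 3.42 ± 0.47 (SE, adjusted p = 0.0023 with edgeR), and it kept an adjusted p under 0.05 without each strain in turn. With each cell thinned to 45000 counts, Ifi27l2a was detected in 86.5% of fibroblasts and 35.4% of mural cells (means over strains).

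Ifi205 (ENSMUSG00000054203, chr1:174011998-174031810, - strand), a p200 protein of a family with members that sense or bind nucleic acids, stood at 232.98, 254.1, 221.6 and 81.3 CPM in fibroblasts, in the same order of strains. In mural cells it stood at 24.3, 3.79, 1.81 and 1.07 CPM, with C57BL6 above the others. Fibroblast and mural sums did not overlap. The log2 fold change was 4.71 ± 0.99 (adjusted p = 0.0202 with edgeR), and the adjusted p was 0.124 without PdgfrbGFP and 0.0774 without Cspg4dsRED. The log2 fold change ran from 4.26 without PdgfrbGFP to 6.35 without C57BL6.

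Ifitm1 (ENSMUSG00000025491, chr7:140967221-140969825, + strand), a relative of Ifitm3 that resides mainly at the plasma membrane, ran the other way. It stood at 29.8, 31.01, 34.97 and 16.3 CPM in fibroblasts and at 532, 354, 71.97 and 131.3 CPM in mural cells. All mural sums lay above all fibroblast sums, and the mural sums of Cspg4dsRED and Acta2GFP, which held more cells of cluster 7, were the lower ones. The mural level was mainly that of cluster 8, at 375 to 609 CPM. Clusters 6 and 7 stood at 0.555 and 2.40 CPM in Cspg4dsRED and 5.40 and 4.35 CPM in Acta2GFP, below the fibroblast sums. Cluster 6 of C57BL6 (98.9 CPM) and cluster 7 of PdgfrbGFP (77.5 CPM) lay above the fibroblast sums. The log2 fold change was -3.31 ± 0.62 (adjusted p = 0.0119 with edgeR), and the adjusted p was 0.0781 without C57BL6 and 0.0744 without PdgfrbGFP. Ifitm2 (-0.15, adjusted p = 0.918) and Ifitm3 (-0.06, adjusted p = 0.973), its neighbours on chromosome 7, differed by less than their spread over strains. Without the 3 C57BL6 cells of cluster 6, whose fibroblast markers were high, these 3 genes were still called, beside 5.89% of all genes, an alternative chosen after seeing the data. The log2 fold changes were then 3.36 for Ifi27l2a, 4.58 for Ifi205 and -3.39 for Ifitm1. This fit left out 3 of the 39 cells of cluster 6, whose fibroblast markers were at 3108 CPM or more in every strain.

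**Figure D2:**
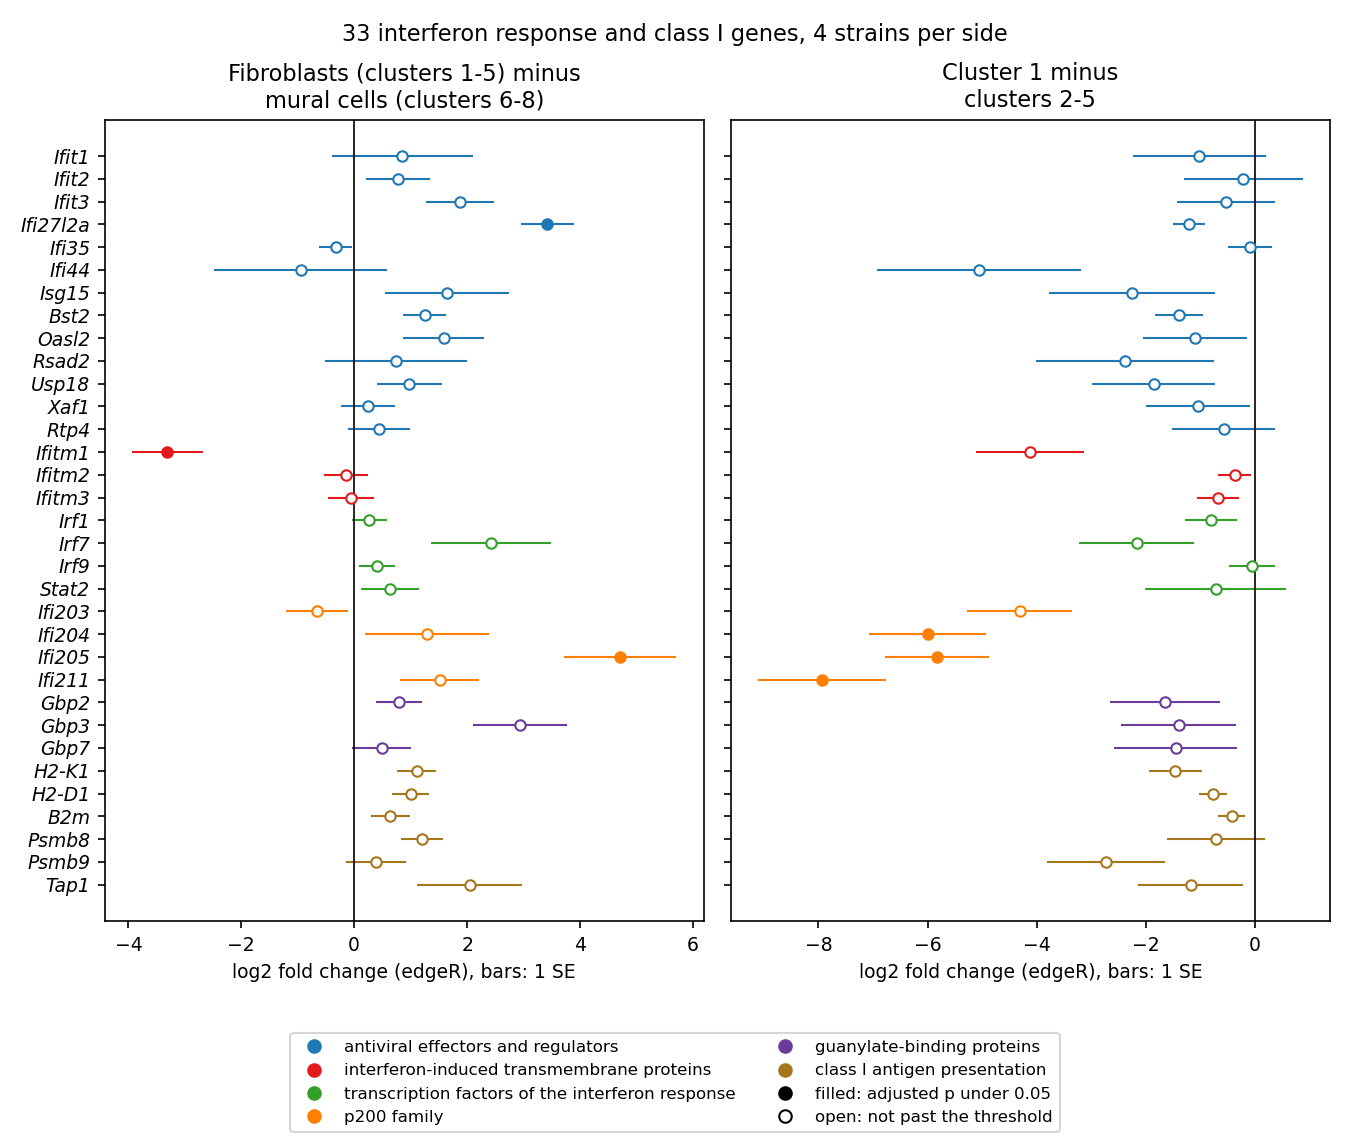
Log2 fold change with its standard error for each of the 33 genes, fibroblasts against mural cells and cluster 1 against clusters 2 to 5, from edgeR on sums per strain (n = 4 strains each). Filled points had an adjusted p under 0.05: Ifi27l2a, Ifi205 and Ifitm1 in the first, and Ifi204, Ifi205 and Ifi211, all below 0, in the second.

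Of the genes not called, Gbp3 (2.93, adjusted p = 0.0739), Irf7 (2.42, adjusted p = 0.275) and Tap1 (2.04, adjusted p = 0.304) had the largest fold changes. Gbp3, a GTPase that acts on membranes of intracellular pathogens, stood at 42.3 to 67.7 CPM in fibroblasts and 0.463 to 14.8 CPM in mural cells, without overlap. Irf7, which amplifies type I interferon production, stood at 69.04, 45.7, 214.1 and 46.1 CPM in fibroblasts and at 1.04, 1.55, 25.3 and 41.6 CPM in mural cells. All fibroblast sums of Irf7 lay above all mural sums, with the smallest gap within a strain in Acta2GFP. The remaining 27 genes ran from -0.95 for Ifi44 to 1.87 for Ifit3 on the log2 scale.

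The class I genes leaned one way without a call. H2-K1 stood at 848, 688, 1211 and 537 CPM in fibroblasts and at 561, 375, 253.8 and 309 CPM on the mural side (1.11 ± 0.34 on the log2 scale, adjusted p = 0.0989). H2-D1 stood at 1363, 1083, 1655 and 890 CPM against 894, 688, 416 and 453 CPM (0.9987 ± 0.33, adjusted p = 0.126). Both heavy chains were higher in the fibroblasts of all 4 strains, and for both the lowest fibroblast sum, of Acta2GFP, lay below the highest mural sum, of C57BL6. The mural clusters were unlike. In cluster 8 H2-K1 stood at 655, 406, 579 and 621 CPM, above the fibroblast sum in Acta2GFP only, and H2-D1 at 982, 728, 1187 and 815 CPM. Clusters 6 and 7 were lower, at 11.8 to 200.4 CPM of H2-K1 and 153.5 to 604.6 CPM of H2-D1. B2m, their common light chain, stood at 1272, 1431, 1443 and 956 CPM against 1010, 1153, 555 and 486 CPM, and its groups overlapped (0.64, adjusted p = 0.423). The immunoproteasome subunits Psmb8 (1.20, adjusted p = 0.106) and Psmb9 (0.38, adjusted p = 0.822) and the peptide transporter Tap1 were not called either. All 6 class I genes had a positive value, with a median of 1.05.

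Of the 13 effectors, 11 had a positive value with a median of 0.85, and Ifi27l2a was the 1 called. Isg15, a ubiquitin-like modifier, stood at 10.3, 9.47, 37.1 and 8.48 CPM in fibroblasts and at 0.232, 11.8, 4.95 and 2.44 CPM in mural cells. Ifit1, which binds viral RNA, stood at 36.4, 13.3, 81.02 and 53.1 CPM against 0.347, 75.8, 14.4 and 1.46 CPM. The PdgfrbGFP mural sum of both lay above its fibroblast sum, opposite to the other 3 strains, and the groups overlapped (adjusted p = 0.544 and 0.832). Irf1, an early transcription factor of the interferon gamma response, stood at 174.3, 144.5, 161.4 and 140 CPM against 94.6, 85.4, 203.9 and 131.7 CPM, with only Cspg4dsRED higher in mural cells (adjusted p = 0.771). Ifitm3 stood at 895, 890, 754 and 622 CPM against 1076, 1254, 441 and 445 CPM, higher in mural cells in C57BL6 and PdgfrbGFP and lower in the other 2.

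Over the whole list, 27 of 33 genes had a positive fold change with a median of 0.79, beside 48.9% and -0.02 over all genes tested. By group the median was 1.40 for p200 genes, 0.85 for effectors, 0.79 for guanylate-binding proteins, 0.52 for transcription factors and -0.15 for Ifitm genes. At an unadjusted p under 0.05 edgeR gave 11 of 33 genes, beside 17% of all genes. DESeq2 called 5 of the genes (with Gbp3 and Ifit3 added), beside 12.7% of all genes, and limma-voom called 7 (with Gbp3, H2-K1, H2-D1 and Psmb8 added), beside 9.55%. Immediate early genes, which respond to dissociation, summed to 15202 ± 6183 CPM over 14 genes in fibroblasts and 9215 ± 1971 CPM in mural cells, and the sums of the strains overlapped. Of these, 13 of 14 were higher in fibroblasts with a median of 0.75, and Jun passed the test. Cardiac muscle markers ran the other way, with 71.5 ± 35.8 CPM over 9 genes in fibroblasts and 591 ± 348 CPM in mural cells, all 8 tested negative with a median of -1.88 and 2 called. Endothelial markers summed to 86.1 ± 108.6 CPM over 7 genes in fibroblasts, with 248.3 CPM in 1 strain, and to 34.01 ± 23.8 CPM in mural cells, and all 6 tested were positive with a median of 1.05 and none called. The part of these lists in the results was not tested.

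Other genes of the pathway were taken as lists. Of 12 receptor and signalling genes tested, 1 was higher in fibroblasts and none lower: Ifngr1, the ligand-binding chain of the interferon gamma receptor, at 734 ± 98.9 against 192.3 ± 78.02 CPM (1.93 ± 0.33, adjusted p = 0.00827). Of 33 other interferon-stimulated genes 1 was higher, Lgals3bp, a secreted glycoprotein, at 629 ± 231.8 against 198.8 ± 73.7 CPM (adjusted p = 0.026). Of 15 other class I genes 1 was higher, Tapbpl, a peptide editor of class I molecules (4.59, adjusted p = 0.0228). No gene was called among 13 nucleic acid sensors and adaptors or among 6 class II genes. These counts stand beside 3.47% of all genes called higher, and 1 of 33 is near that share. Positive values were held by 8 of 12, 27 of 33 and 14 of 15 genes of the first 3 lists, with medians of 0.18, 0.99 and 0.99. The interferons themselves were almost absent from the reads. Of 11 interferon genes, 9 had 0 reads in all 1279 cells, Ifng had 22 reads in 1 cell of cluster 4, and Ifnk had 3 reads in 1 cell of cluster 6.

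Within fibroblasts, cluster 1 had a low level of p200 genes, and cluster 3 was also low in some of them. Ifi204, Ifi205 and Ifi211, 3 of 33 genes, were called lower in cluster 1 than in clusters 2 to 5 with edgeR, and none was higher. The background was 1.33% of 13201 genes in either direction and 0.773% lower, with 0.561% higher. The comparison rested on 19, 22, 3 and 26 cells of cluster 1 in C57BL6, PdgfrbGFP, Cspg4dsRED and Acta2GFP, and on 4 strains.

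Ifi211 (ENSMUSG00000026536, chr1:173896345-173913046, - strand) stood at 0.169, 0.248, 0 and 0.0943 CPM in cluster 1 and at 34.9, 41.5, 44.03 and 40.7 CPM in clusters 2 to 5. Cluster 1 had 4 reads of it in 70 cells, and clusters 2 to 5 had 10227 reads in 856 cells. In Cspg4dsRED, where cluster 1 had 0 reads in 3 cells, 3 reads would have been 3.70 CPM. The log2 fold change was -7.93 ± 1.17 (adjusted p = 0.00784 with edgeR), a value that depends on the prior count at so few reads. With cells thinned to equal counts, Ifi211 was detected in 0 of 70 cells of cluster 1 and in 32.8% of the cells of clusters 2 to 5.

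Ifi205 stood at 11.3, 1.11, 0 and 1.51 CPM in cluster 1 and at 241.2, 285.9, 240 and 103.6 CPM in clusters 2 to 5, and the log2 fold change was -5.83 ± 0.96 (adjusted p = 0.0144 with edgeR). Ifi204 (ENSMUSG00000073489, chr1:173747293-173766943, - strand), a nuclear p200 protein implicated in DNA sensing, stood at 0.845, 0.372, 1.23 and 0.377 CPM against 53.9, 33.3, 47.4 and 24.6 CPM (-6.00 ± 1.07, adjusted p = 0.0225 with edgeR). For all 3 genes the groups were far apart in every strain, with clusters 2 to 5 pooled. Cluster 3 alone lay near cluster 1 for some genes and strains. In C57BL6, PdgfrbGFP and Acta2GFP its Ifi204 stood at 25.1, 0.463 and 0.733 CPM. Its Ifi203 stood at 14.8, 1.85 and 0.55 CPM, its Ifi205 at 22.7, 14.8 and 2.02 CPM, and its Ifi211 at 10.8, 25 and 7.33 CPM. The calls nonetheless rested on few sums. With the strain as a block only Ifi205 was called, and the adjusted p was 0.0613 for Ifi211 and 0.0983 for Ifi204. Without C57BL6 1 of the genes was called (Ifi205), without Cspg4dsRED 2 (Ifi204 and Ifi211, with Ifi205 at an adjusted p of 0.0528), and without PdgfrbGFP or Acta2GFP 0, where the adjusted p ran from 0.071 to 0.165. The log2 fold changes of the 3 genes stayed at -5.32 or below in these fits, and that of Ifi205 was -7.54 without C57BL6.

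Ifi203, the remaining p200 gene, stood at 4.06, 0.619, 3.70 and 9.53 CPM against 40.5, 31.6, 202.6 and 84.9 CPM (-4.31, adjusted p = 0.0538), also without overlap. DESeq2, the fit without a filter on low counts, C57BL6 plates apart and thinned counts called it. With the plates apart Ifi205 was not called (-4.22, adjusted p = 0.079), while Ifi204 and Ifi211 were. With Ifi203, Ifi44, an effector of unclear function (-5.05, adjusted p = 0.36), and Ifitm1 (-4.12, adjusted p = 0.0676) had the largest values not called, and the remaining 27 genes ran from -2.73 for Psmb9 to -0.06 for Irf9. Ifitm1 stood at 1.01, 1.73, 2.47 and 2.08 CPM in cluster 1 and at 30.9, 34.7, 37.7 and 20.3 CPM in clusters 2 to 5. Its thinned detection was 14.3% in cluster 1 and 12.5% in clusters 2 to 5, so the gap in CPM was not one in the share of cells with a read. For the p200 genes the pooled shares differed, with 10% against 23.8% for Ifi203, 8.57% against 19.6% for Ifi204 and 12.9% against 57% for Ifi205.

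**Figure D3:**
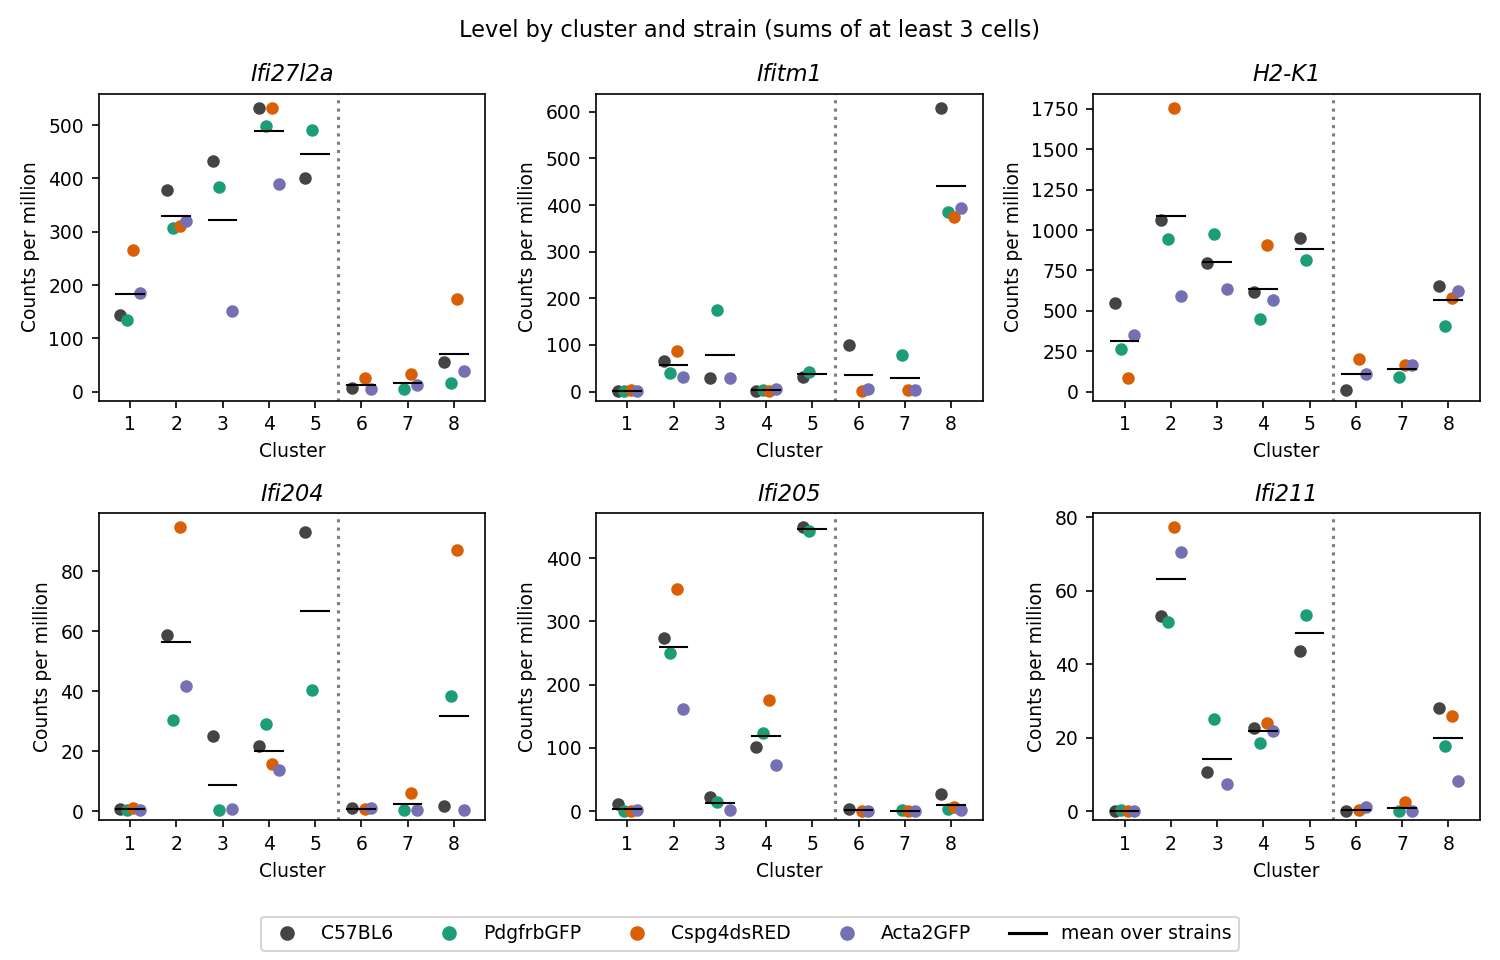
CPM of Ifi27l2a, Ifitm1, H2-K1, Ifi204, Ifi205 and Ifi211 in clusters 1 to 8, with 1 point per strain and cluster of at least 3 cells. Ifi204, Ifi205 and Ifi211 lie at or near 0 in every strain of cluster 1, and Ifitm1 lies between 375 and 609 CPM in cluster 8.

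The class I genes also had negative values in cluster 1, of smaller size, and edgeR called none of them. H2-K1 stood at 546, 262.6, 86.4 and 353 CPM against 859, 742, 1304 and 589 CPM (-1.46 ± 0.48, adjusted p = 0.262), and H2-D1 at 902, 728, 671 and 723 against 1380, 1127, 1737 and 937 CPM (-0.77 ± 0.26, adjusted p = 0.266). Neither pair of groups overlapped, and neither was called. How many of all genes separate in this way was not counted. B2m stood at 1159, 996, 803 and 915 CPM against 1276, 1486, 1496 and 968 CPM, lower in all 4 strains with overlap (-0.43, adjusted p = 0.773). Ifi27l2a stood at 144.3, 135.02, 265.3 and 184.5 CPM against 437, 446, 435 and 323 CPM (-1.20 ± 0.29, adjusted p = 0.073). Isg15 stood at 0.338, 0.248, 0 and 13.5 CPM in cluster 1 and Irf7 at 7.44, 21.6, 0 and 55.7 CPM, with Acta2GFP the highest strain in both.

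All 33 genes had a negative value against clusters 2 to 5, with a median of -1.20, beside a median of -0.03 and 48.5% positive over all genes tested. That median of all genes was -0.47 with the strain as a block and -0.49 with limma-voom. The median was -5.91 for p200 genes, -1.45 for guanylate-binding proteins, -1.10 for effectors, -0.97 for class I genes, -0.76 for transcription factors and -0.67 for Ifitm genes. At an unadjusted p under 0.05 edgeR gave 11 of 33, beside 8.87% of all genes. DESeq2 called 7, with Ifi203, Ifitm1, Ifi27l2a and Psmb9 added, beside 5.22%, and limma-voom 4, with Ifitm1 added, beside 2.93%. Other p200 genes fixed in the pathway lists went the same way: Ifi207 (-6.58, adjusted p = 0.00784) and Mndal (-5.81, adjusted p = 0.0384) were the 2 genes called of 29 other interferon-stimulated genes, of which 28 were negative with a median of -1.05. The sensor Zbp1, which binds Z-form nucleic acids, was lower as well (-8.66 ± 1.65, adjusted p = 0.0326 with edgeR), as 1 of 13 sensors. As for Ifi211, a value of this size can depend on the prior count, and the reads of Zbp1 are not given here. None of 12 receptor and signalling genes, 15 other class I genes or 5 class II genes was called, and the first 2 lists had medians of -0.49 and -0.63. The 14 immediate early genes summed to 9477 ± 4752 CPM in cluster 1 and 13173 to 25857 CPM in clusters 2 to 5. Some markers of other cell types had larger means in cluster 1 than in clusters 2 to 5, with a wide spread over strains. They were at 184.8 ± 117.2 against 28.6 to 58.6 CPM for cardiac muscle, 351 ± 280.7 against 51.6 to 178.3 CPM for mural cells and 83.1 ± 65.5 against 7.84 to 60.1 CPM for endothelial cells. No gene of these 3 lists was called. Smooth muscle markers were not highest in cluster 1, at 457 ± 353 against 44.7 to 823 CPM. The part of all these lists was not tested. Without the cells at or above 50 CPM of immune markers, Ifi211 and Ifi205 were still called, and Ifi204 had an adjusted p of 0.0719. That fit had 3 strains, since 2 Cspg4dsRED cells of cluster 1 were left, and in the fit without Cspg4dsRED alone Ifi204 had an adjusted p of 0.0488.

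The p200 genes lie side by side on chromosome 1, and their reads can be split or shared. Ifi203 and Ifi211 overlap Mndal on the same strand, the family is similar in sequence, and the strand setting of the counting is not given in the sources used here. The values of the single p200 genes are therefore uncertain among themselves. Other overlaps on the annotation join Psmb9 with Tap1, Irf7 with Phrf1, Irf9 with Rnf31, B2m with Patl2 and Rtp4 with Masp1, and Ifit3 has a near-identical copy.

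Clusters 2 to 5 were next compared with each other, each against the other 3. These 4 comparisons share cells. With edgeR 0 genes of any kind were called in all 4 (0 of 13870, 14803, 14104 and 16214 genes), so that the percent called was 0. At an unadjusted p under 0.05, edgeR gave 5 of the 33 genes for cluster 2 (4.62% of all genes), 4 for cluster 3 (6.05%), 9 for cluster 4 (4.75%) and 3 of 32 for cluster 5 (3.89%).

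Cluster 2 had positive values for 30 of 33 genes with a median of 0.55, beside 50.1% and 0.00 over all genes, and the largest were of Rsad2 (4.09), Ifit1 (2.36) and Ifitm1 (1.76), with adjusted p from 0.915 to 0.9997, while the other 30 genes ran from -0.42 for Ifi27l2a to 1.64 for Usp18. Rsad2, the viperin enzyme, stood in cluster 2 at 40.7, 0, 0.246 and 100.996 CPM in C57BL6, PdgfrbGFP, Cspg4dsRED and Acta2GFP, so that it was high in 2 strains and near 0 in the other 2. Ifit1 stood at 74.8, 25.4, 208.4 and 64.3 CPM, and Irf7 at 122.6, 32.6, 367 and 77.1 CPM, highest in the 8 cells of Cspg4dsRED. DESeq2 and limma-voom called 0 of the genes, beside 1.22% and 0.0577% of all genes.

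Cluster 4 was the opposite, with 29 of 33 genes negative and a median of -0.66, beside 50.4% positive and 0.00 over all genes. Ifi44 (-5.66, adjusted p = 0.765), Rsad2 (-4.01, adjusted p = 0.987) and Ifitm1 (-3.91, adjusted p = 0.22) had the largest values, and the other 30 genes ran from -2.43 for Ifit1 to 0.44 for Ifi27l2a. Ifitm1 stood at 0.618, 4.47, 1.47 and 6.07 CPM in cluster 4, below every other fibroblast sum of clusters 2 to 5, and it was called by DESeq2 and in thinned counts (adjusted p = 4.18e-05 and 0.0114). DESeq2 called 5 of the genes here (Ifi211, Ifi44, Ifitm1, Irf1 and Psmb9), beside 1.30% of all genes, and limma-voom 0, beside 0.248%. Irf1 stood at 88.3, 59.2, 88.96 and 131.9 CPM in cluster 4.

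Ifi205 had values of opposite sign in clusters 3 and 5. In cluster 3 it stood at 22.7, 14.8 and 2.02 CPM in C57BL6, PdgfrbGFP and Acta2GFP, a mean of 13.2 ± 10.4 against 232.4 ± 96.9 CPM in the other 3 clusters (-4.05, adjusted p = 0.364). In cluster 5 it stood at 448 and 442 CPM in C57BL6 and PdgfrbGFP, against 158.3 ± 16.5 CPM (1.57, adjusted p = 0.9999 with edgeR, n = 2 strains). DESeq2 and the fit without a filter on low counts called Ifi205 in both, as the only one of the genes, beside 2.61% and 0.765% of all genes in DESeq2, and limma-voom called 0. The other large values were Ifi44 (-4.06) and Rsad2 (-3.85) in cluster 3 and Isg15 (-1.63) and Rsad2 (-1.37) in cluster 5, with adjusted p from 0.845 to 0.9999. Without 1 strain, Rsad2 in cluster 3 ran from -7.55 (without C57BL6) to -1.82 (without Acta2GFP), and Ifi44 from -5.79 (without PdgfrbGFP) to -3.47 (without Acta2GFP). The remaining genes ran from -3.27 for Ifi203 to 2.23 for Isg15 in cluster 3 and from -0.78 for Gbp7 to 1.26 for Ifi203 in cluster 5. Irf1 in cluster 3 stood at 276.3, 750 and 186.9 CPM, above the cluster's comparison side in all 3 strains (1.69, adjusted p = 0.419). Of the 33 genes 15 were positive in cluster 3, with a median of -0.15, beside 45.2% and -0.13 over all genes. In cluster 5 the median was 0.16 beside 0.03 over all genes.

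Among mural cells, cluster 8 had higher values than cluster 7, without a call. The comparison had 3 strains, PdgfrbGFP, Cspg4dsRED and Acta2GFP, and edgeR called 0 of 32 genes, beside 0.194% of 11867 genes (0.0843% higher and 0.11% lower). Unadjusted, 12 of 32 had p under 0.05, beside 6.88%, and 30 of 32 were positive with a median of 2.42, beside 55.2% and 0.18 over all genes. DESeq2 called 4 (Rtp4, Psmb9, Ifit2 and Ifit3; 3.20% of all genes) and limma-voom another 4 (B2m, Ifitm1, Ifitm3 and H2-D1; 1.31%).

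Ifitm1 stood at 385, 375 and 393 CPM in cluster 8 and at 77.5, 2.40 and 4.35 CPM in cluster 7, a wide gap in each strain (3.55 ± 1.21, adjusted p = 0.409). The fit without a filter on low counts called it. In C57BL6, whose cluster 7 had 1 cell and was not used, cluster 8 gave 609 CPM, and 62.8% of cluster 8 cells had a thinned read of Ifitm1 against 7.63% of cluster 7. H2-K1 stood at 406, 579 and 621 CPM against 89.8, 165.1 and 165.1 CPM (1.89, adjusted p = 0.288), and H2-D1 at 728, 1187 and 815 against 320, 153.5 and 226.3 CPM (1.84, adjusted p = 0.264). B2m stood at 1220, 1213 and 733 CPM against 544, 257.4 and 340 CPM (1.34, adjusted p = 0.522), and Ifitm3 at 1326, 1033 and 688 against 600, 322 and 322 CPM. All 4 were higher in cluster 8 in every strain without overlap, and edgeR called none of them. The share of all genes that separate in this way was not counted.

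The largest fitted values were of Psmb9 (5.48, adjusted p = 0.436), Ifit2 (5.29, adjusted p = 0.41) and Irf7 (4.41, adjusted p = 0.639), which had few reads in cluster 7, and the other 29 genes ran from -0.63 for Irf1 to 4.26 for Ifit3. Psmb9 stood at 37.05, 74.4 and 33.3 CPM against 0, 1.90 and 1.09 CPM. Irf7 was at 1.51 CPM in cluster 8 of PdgfrbGFP, below the 1.96 CPM of cluster 7, so its gap came from Cspg4dsRED and Acta2GFP, with 100.3 and 66.02 CPM. Ifit1 stood at 84.2, 58.5 and 1.79 CPM against 0, 6.59 and 0.836 CPM. The 2 genes with a negative value were Irf1 (-0.63), with 365 CPM in the Cspg4dsRED cells of cluster 7, and Ifi35 (-0.29). The immediate early genes ran the other way, with all 14 negative, a median of -1.51 and Atf3 called (-4.11, adjusted p = 0.0314), and the immune markers summed to 182.8 ± 307 CPM in cluster 7, with 537 CPM in 1 strain, and to 21.3 ± 18.4 CPM in cluster 8. The 9 cardiac muscle markers summed to between 1283 and 1904 CPM in cluster 7 and between 141.5 and 290.5 CPM in cluster 8, and the 5 fibroblast markers to between 309 and 777 CPM and between 960 and 3334 CPM. Their part in the result was not tested.

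Cluster 6 was compared with clusters 7 and 8 in C57BL6, Cspg4dsRED and Acta2GFP, where it had 3, 33 and 3 cells. EdgeR called 0 of 30 genes tested, beside 0.033% of 12117 genes. Unadjusted, 7 had p under 0.05, beside 5.74%, DESeq2 called 3 (Ifi203, Usp18 and Rtp4), beside 2.81%, and limma-voom 0, beside 0.479%. Of the 30 genes 10 were positive with a median of -1.89, beside 41.8% and -0.32 over all genes. Without C57BL6, whose 3 cells of cluster 6 had high fibroblast markers, 0 of 32 genes were called, beside 0.144%. The largest values were of Usp18, a protease that removes Isg15 from proteins (-6.12, adjusted p = 0.559), Rtp4 (-6.08, adjusted p = 0.463) and Ifi203 (-5.84, adjusted p = 0.39), and the other 27 genes ran from -4.60 for Ifi211 to 2.30 for Irf7. Gbp2 and Irf7 had the largest positive values (2.30 each), and Irf7 was higher in 1 of 3 strains (adjusted p = 0.994). Gbp2 stood at 586, 100.9 and 306 CPM in cluster 6, its highest level in any cluster, with a mean of 331 ± 243.4 against 70.7 ± 6.73 CPM (adjusted p = 0.596).

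Per cell, the 33 genes summed to a median of 4116, 7394, 6762, 5739 and 7816 CPM in clusters 1 to 5 and to 2152, 1959 and 6429 CPM in clusters 6 to 8. Cluster 8 thus lay among the fibroblast clusters 2 to 5, and clusters 6 and 7 lay below cluster 1. The medians of fibroblasts were 6954, 6861, 8656 and 5336 CPM in C57BL6, PdgfrbGFP, Cspg4dsRED and Acta2GFP. Those of mural cells were 5874, 6213, 2589 and 2217 CPM, low in the 2 strains that held most cells of clusters 6 and 7. The sum of 12 genes taken as core interferon-stimulated genes (Ifit1, Ifit2, Ifit3, Isg15, Oasl2, Rsad2, Usp18, Ifi44, Irf7, Xaf1, Rtp4 and Stat2) behaved differently, with medians from 105.8 to 200.8 CPM in clusters 1 to 5 and 11.7, 14.8 and 20.5 CPM in clusters 6, 7 and 8. These medians pool strains of unequal shares, and cluster 8 was not uniform, with medians of 13.2, 17.97, 537 and 64.7 CPM in C57BL6, PdgfrbGFP, Cspg4dsRED and Acta2GFP. In PdgfrbGFP the fibroblasts of clusters 2 and 5, at 18.4 and 17.7 CPM, lay beside cluster 8, while those of clusters 1 and 4 were at 220.5 and 267.3 CPM. The upper quartile of cluster 8, 538 CPM, also lay near those of the fibroblast clusters and above the 101.9 and 68.5 CPM of clusters 6 and 7.

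Reads of several of these 12 genes were concentrated in few cells. The 13 cells with the highest values, 1% of all cells, held 22.1% of the summed CPM of the 12 genes but 4.43% of that of all 33. For single genes, each with its own top 13 cells, the share was 97.9% for Ifi44, 89.5% for Rsad2, 63.5% for Ifit1, 52.6% for Isg15 and 44% for Stat2, against 3.54% for B2m. Others of the 12 were less concentrated, with 24.1% for Oasl2, 22.7% for Rtp4 and 19.9% for Xaf1, near the 20.9% of Irf1 and of Ifitm1, and Tap1, outside the 12, was at 43.1%. Ifi44 had a count in 56 cells, Rsad2 in 96, Isg15 in 130 and B2m in all 1279. Means of Ifi44, Rsad2, Ifit1 and Isg15 per strain and cluster thus rest on few cells. The 13 top cells by the sum of the 12 genes lay in cluster 2 (8 cells), cluster 8 (3) and cluster 5 (2). The highest was a Cspg4dsRED cell of cluster 8 with 20545 CPM of the 12 genes at a total of 95204 counts, and it had reads of all 12. A C57BL6 cell of cluster 2 also had all 12, with 13667 CPM.

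Cells with many of the 12 genes at once were counted after thinning each cell to 45000 counts. At least 6 of the 12 were found in 38 of 1279 cells (2.97%, 95% Wilson interval 2.17 to 4.05%), and none of the 12 in 394 cells (30.8%). The share with at least 6 was 3.46% in fibroblasts (32 of 926, 2.46 to 4.84%) and 1.70% in mural cells (6 of 353, 0.781 to 3.66%). These shares pool cells of unequal strains, and the mean over strains was 7.89 ± 8.41% in fibroblasts and 1.74 ± 1.62% in mural cells. By cluster it was 6.85% in cluster 2 (4.19 to 11%) and 0.342% in cluster 5 (0.0605 to 1.91%), and the others with any such cell lay between 3.06% and 4.29%. The strains were unequal in the clusters, and no order is drawn from these shares: all 3 such cells of cluster 1 were of Acta2GFP, and cluster 5 held 1 Cspg4dsRED and 2 Acta2GFP cells. After thinning clusters 6 and 7 had 0 such cells, which allows shares of up to 7.69% and 2.54% by a limit of 3 cells of the total, or 8.97% and 3.15% by the Wilson interval. Fibroblasts of the strains gave 2.76% in C57BL6, 0.424% in PdgfrbGFP, 19.2% in Cspg4dsRED (5 of 26 cells) and 9.17% in Acta2GFP. Over all cells of these strains the median numbers of genes detected before thinning were 4125, 3358, 4265 and 6388. Their part in these shares was not tested. Without thinning 10.1% of cells had at least 6, with 7.69% in cluster 6, 5.08% in cluster 7 and 5.48 to 16.9% in the other clusters, and 27 cells (2.11%) did at a minimum of 3 counts per gene. Read counts here are not counts of molecules, so the intervals cover counting error only, and cells of 1 strain are not independent samples.

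**Figure D4:**
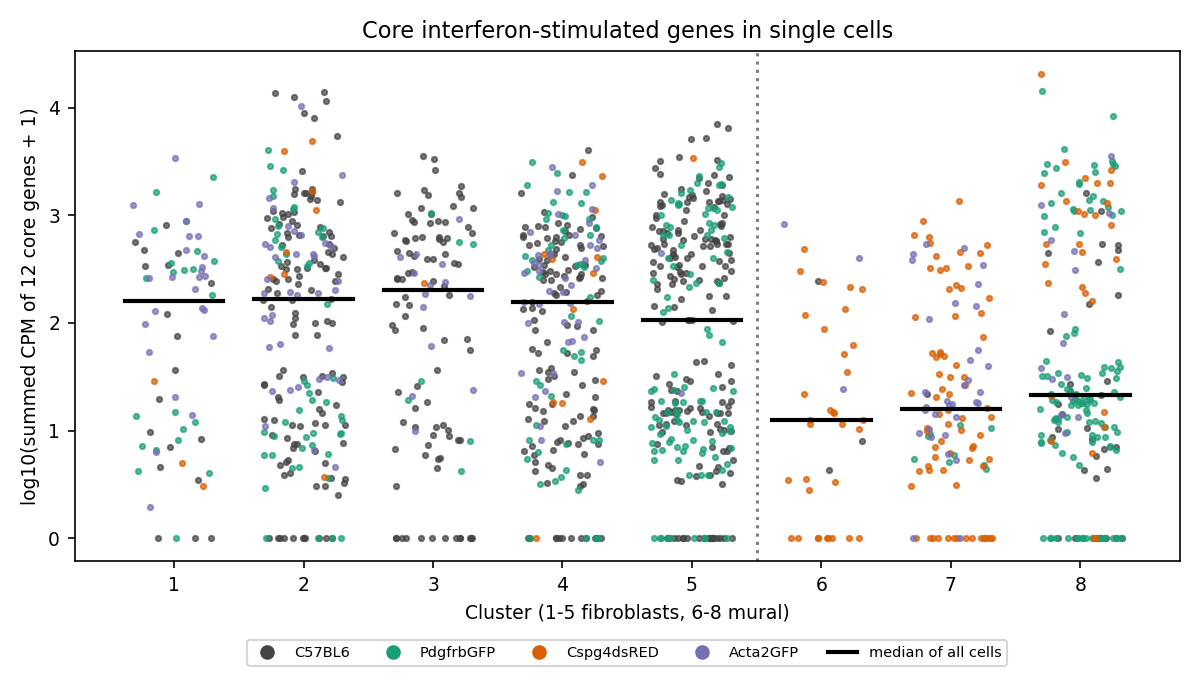
Summed CPM of the 12 core interferon-stimulated genes in each of the 1279 cells, as log10(CPM + 1), by cluster, coloured by strain, with a bar at each cluster's median. The medians run from 105.8 to 200.8 CPM in clusters 1 to 5 and from 11.7 to 20.5 CPM in clusters 6 to 8, the cells of the clusters overlap widely, and single cells of clusters 2, 5 and 8 reach the highest values.

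The 38 cells with at least 6 of the 12 genes were chosen after thinning to equal counts. Their median total before thinning was 276693 counts against 274504 in the other 1241 cells, with 4844 against 4024 genes detected. Immune markers had a median of 0 CPM and a maximum of 125.7 CPM in them, and interferon genes had 0 reads. The list of other interferon-stimulated genes, which did not enter the choice of the cells, had a median of 4942 CPM in them against 1372 CPM in the rest, nucleic acid sensors 789 against 347 CPM, and other class I genes 4357 against 2907 CPM. Immediate early genes were at 10527 against 16687 CPM. These cells were chosen by related values, so the medians are a description with no test.

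All but 1 of the fibroblasts of C57BL6 came from 2 plates, which also differed. The first had 6.45 CPM of Ifi44 and 39.3 CPM of Ifitm1 against 0.0155 and 15.1 CPM on the second, and Isg15 stood at 13.1 against 6.05 CPM. Tap1 (30.1 against 58.05 CPM), Stat2 (28.97 against 61.4 CPM) and Ifi204 (40.4 against 70.6 CPM) were higher on the second. With 1 sum per plate and side these gaps had no replicate. Genes of the list thus lay in both directions between the plates of 1 strain.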

How the data were processed

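Each sample was 1 cell. The deposited table held raw counts, with 1 line a gene and 1 column a cell, and the authors normalized nothing in it. By the methods of the study, trimming used Trim Galore, and the authors mapped reads to GRCm38 with TopHat2 and Bowtie, and counted them with featureCounts; annotation release and strand setting are not given in the sources used here. They removed shallow cells, likely doublets (high gene numbers), cells with high shares of mitochondrial or spike-in counts, and cells with endothelial or immune signatures, and no further cell was left out and no doublet caller was run here. The 92 ERCC spike-ins (1.82% of counts) stayed out of totals and tests. Of 46517 genes, 46005 matched the GRCm38 annotation, which gave coordinates.

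The 33 genes and all lists were chosen with earlier results of these data known. Counts were summed per strain and side (at least 3 cells), giving 3 or 4 sums a side in most comparisons and 2 for cluster 5. They were tested with the quasi-likelihood F test of edgeR 4.0.16 (R 4.3.3) after TMM and filterByExpr with a minimum count of 10, Benjamini-Hochberg adjustment over all genes and a threshold of 0.05. Alternatives were DESeq2 1.42.0, limma-voom (limma 3.58.1), RLE size factors, no filter, strain as a block, at least 10 cells a sum, C57BL6 plates apart, thinned cells, no cells at or above 50 CPM of immune markers, leaving out each strain and, added after seeing the data, leaving out the C57BL6 cells of cluster 6. By the labels, both sides of a strain share the strain and, outside C57BL6, the plate, which is where the pairing comes from, although no animal is named. The deviations of the 2 sides of a strain from the side means correlated at between 0.0624 and 0.242. The script was tested on simulated data. CPM is the count per 1000000 counts of the summed total, mean ± SD is over strains, and the SE of a log2 fold change is its size over the square root of F. All 33 genes are named; in each comparison the called ones have full statistics, of the others the 3 with the largest fold change have value and adjusted p, and the rest are given by range. Strain values are given for called genes and for B2m, H2-K1, H2-D1, Ifitm3, Isg15, Ifit1, Irf1 and Irf7, and further genes with strain values (Ifi27l2a, Ifitm1, Ifi203, Rsad2, Gbp2, Gbp3, Psmb9 and the plate values) were chosen after their values were seen. P-values measure the spread between strains, each taken as 1 sample, with no animal named. Where the sums of both sides are said not to overlap, the share of all genes that separate so was not counted.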

Additional observations from a re-analysis of the deposited data

Results flagged for a closer look

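In groups of 4 strains, 8 of 66 gene and cell type groups held 1 strain far from the other 3 by Dixon's ratio, where chance gives about 1 in 20. Of these, 5 were in fibroblasts and 3 in mural cells. The strain apart was Cspg4dsRED in 4, C57BL6 in 2 and Acta2GFP in 2.

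The 26 fibroblasts of Cspg4dsRED stood above the other strains in 4 interferon-stimulated genes. Isg15 was at 37.1 CPM (391 reads) against 8.48 to 10.3 CPM, Irf7 at 214.1 CPM against 45.7 to 69.04 CPM, Usp18 at 134.4 CPM against 34.6 to 47.3 CPM, and Gbp7 at 178.2 CPM against 43.7 to 64.2 CPM. In the fibroblasts of Acta2GFP, Ifi27l2a was at 293 CPM, below the 411 to 427 CPM of the other strains.

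Among mural cells, C57BL6 stood above the others in Bst2, the tetherin that holds virus at the cell surface, at 100.3 CPM against 47.1 to 54.6 CPM. It did so too in Ifi205, at 24.3 CPM (210 reads) against 1.07 to 3.79 CPM. Gbp7 was at 110.9 CPM in Acta2GFP against 37.4 to 44.01 CPM in the other strains. These mural sums mix clusters unequally, with most C57BL6 cells in cluster 8 and most Cspg4dsRED cells in cluster 7. In cluster 8 alone Bst2 was highest in Cspg4dsRED, at 162.6 CPM. It was at 101.5 CPM in C57BL6, 58.2 CPM in PdgfrbGFP and 63.9 CPM in Acta2GFP. Ifi205 in C57BL6 (27.9 CPM) and Gbp7 in Acta2GFP (230.8 CPM) were still highest there. The part of the cluster mix was not tested.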

How the results depend on the processing

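For the called genes and the 3 genes with the largest fold changes of each comparison, each checked under each alternative, 20 checks moved past the threshold, 18 fell short of it, and 1 changed sign: Rsad2 in cluster 5, from -1.37 to 0.58 with the strain as a block. The other checks kept direction and side. Without 1 strain the log2 fold changes of genes not called moved widely in cluster 2 (Rsad2 from 2.55 to 4.80, Ifit1 from 1.23 to 3.15) and for fibroblasts against mural cells (Irf7 from 1.86 to 3.54, Tap1 from 1.39 to 3.01). Further genes also passed the threshold under an alternative, among them H2-K1 and Psmb8 (limma-voom and thinned counts), H2-D1 and Bst2 for fibroblasts against mural cells, and B2m, Ifitm1 and Ifitm3 (limma-voom) for cluster 8 against 7. The cause of these moves was not tested, except that leaving out strains or adding a block leaves fewer degrees of freedom.

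The share of all genes called for fibroblasts against mural cells was 5.93%, and 2.58% with no filter, 12.7% with DESeq2, 9.55% with limma-voom and 2.66 to 3.91% without 1 strain. Of the 33 genes 3 were called, and 5 with DESeq2, 7 with limma-voom, 6 in thinned counts and 1 to 3 without 1 strain. For cluster 1 the share went from 1.33% to 0.53% with no filter, 5.22% with DESeq2, 2.93% with limma-voom, 0.742% with the block, 2.15% in thinned counts, 0.714% without cells with immune markers (which also drops Cspg4dsRED, with 2 cells left), 0.748% with at least 10 cells a sum and 0.201 to 0.748% without 1 strain. Of the 33 genes 3 were called, and 7 with DESeq2, 5 in thinned counts, 1 with the block and 0 to 2 without 1 strain. For cluster 8 against 7 the share went from 0.194% to 0.379% with RLE, 0.855% with no filter, 3.20% with DESeq2, 1.31% with limma-voom, 0.691% with the block, 0 with at least 10 cells and 0 to 0.987% without 1 strain. The 0 of the 33 genes became 1 with no filter, 4 with DESeq2 and 4 with limma-voom. For cluster 6 it went from 0.033% to 0.418% with no filter, 2.81% with DESeq2, 0.479% with limma-voom, 0.883% with the block, 0.151% in thinned counts and 0 to 0.495% without 1 strain, and the 0 of the 33 genes became 3 with DESeq2.

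From 0, cluster 2 went to 0.00736% with no filter, 1.22% with DESeq2, 0.0577% with limma-voom and 0.176% with plates apart. Cluster 3 went to 0.0705% with no filter, 2.61% with DESeq2, 0.236% with the block, 0.0166% in thinned counts and 0.135% with plates apart, with 1 of the 33 genes with no filter and 1 with DESeq2. Cluster 4 went to 0.0184% with no filter, 1.30% with DESeq2, 0.248% with limma-voom, 0.186% in thinned counts, 0.00719% without cells with immune markers, 0.159% with plates apart and 0 to 0.00657% without 1 strain, with 5 of the 33 genes with DESeq2 and 1 in thinned counts. Cluster 5 went to 0.119% with no filter, 0.765% with DESeq2 and 0.00672% with plates apart, with 1 of the 33 genes with no filter and 1 with DESeq2.

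The strain block changed no call of the 33 genes other than Ifi204 and Ifi211 in cluster 1. RLE moved the median log2 fold change of all genes from -0.32 to -0.17 in cluster 6, from 0.18 to 0.04 in cluster 8 and from -0.13 to 0.04 in cluster 3. With the strain block and limma-voom this median was -1.08 and -1.08 in cluster 6, and -0.84 and -0.95 in cluster 3. It went from -0.03 to -0.47 and -0.49 in cluster 1, and from -0.02 to 0.20 and 0.25 for fibroblasts against mural cells. In cluster 8 it was 0.34 and 0.24. The mean share over strains of cells with at least 6 of the 12 genes went from 7.89 to 20.5% in fibroblasts and from 1.74 to 8.72% in mural cells without thinning, and the summed CPM per fibroblast from 6952 to 3303 without B2m, H2-K1 and H2-D1. Sums of 3 cells and 3 or fewer strains limit what could be called.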
